A study of Rattus norvegicus with 20 samples.

Results

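The data described here are the levels of 7 genes of pigment cells, Tyrp1, Dct, Tyr, Pmel, Mlana, Mitf and Slc45a2, in the brain and spinal cord of injured rats. Rows were taken by gene name. The group was chosen by the levels of Tyrp1 in the cord caudal to the injury, where stimulated animals held it and control animals did not, so the values of that one comparison are given below as a description, without a test. Of the 7 genes, 6 had a row among the 30443 rows of the table: Tyrp1 (ENSRNOG00000029318), Tyr (ENSRNOG00000016421), Mlana (ENSRNOG00000036608), Slc45a2 (ENSRNOG00000018759), Mitf (ENSRNOG00000008658) and Pmel (ENSRNOG00000023085). No row carried the name Dct, which was not analysed here. A level of at least 1 FPKM (sequenced fragments scaled to transcript length and to the mapped total of the library) in at least 1 library was reached by 15210 rows, among them 3 of the 7 genes, Tyrp1, Pmel and Mitf. Tyrp1 reached it only through the libraries that had singled it out.

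All 4 animals were adult female wild-type Long-Evans rats about 6 to 8 months old. All 4, controls included, had a hemicontusion of the cervical cord with a displacement of 0.7 mm and later an electrode array in the motor cortex opposite the injury. In 2 animals the cortex was stimulated for 1 week, 5 hours a day at 10 Hz and 80% of the current that evoked movement, and the 2 control animals were connected without current. From each animal 5 pieces of tissue were sequenced separately: subcortical white matter under the implant (region 1), its counterpart on the other side (region 2), and cord rostral to the injury (region 3), at the lesion (region 4) and caudal to it (region 5), which gave 20 libraries. With 2 animals per group, each value of a group rests on 2 libraries per region.

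Between 12497 and 13546 genes per library were at 1 FPKM or more. The white matter blocks held neuronal as well as glial RNA, since Slc17a7, the vesicular glutamate transporter of cortical excitatory neurons, lay between 225 and 329 FPKM in all 8 of them. Hoxa5, which marks cervical cord, was at 0.1 FPKM in the same 8 libraries and at 5.13 FPKM or more in every cord library of the fits across regions. Region 2 of stimulated animal 2 stood apart in phagocyte genes, whose summed level was 416 FPKM against 91.2 to 110 FPKM in the other libraries of region 2. In region 1 the same sum also varied, at 457 and 1174 FPKM in the stimulated and 253 to 278 FPKM in the control animals. For Mitf and Pmel, the comparisons of tissues and of regions 1 and 2 and the stimulation fit of region 2 are given with and without region 2 of stimulated animal 2.

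Melanocytes are pigment cells of the neural crest that make melanin inside melanosomes, organelles related to lysosomes. In pigmented rodents they are found in the skin, the inner ear and the leptomeninges. Tyr, or tyrosinase, is the rate-limiting oxidase of melanin synthesis, and Tyrp1 and Dct are its relatives in the same pathway. Pmel forms the fibrils on which melanin is laid down, Mlana is a small melanosomal membrane protein, and Slc45a2 is a melanosomal transporter. Mitf is the transcription factor of the lineage. It binds an E-box with flanking bases, called the M-box, in the promoters of the tyrosinase family, and it is also made in cells other than melanocytes, among them macrophages and osteoclasts. A pigmented melanocyte makes all 7 of these transcripts side by side.

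The promoters of the 3 enzymes are shown because they share this element. Each is the RefSeq sequence on GRCr8 from 250 bases before the start of the gene to 50 bases after it, written 5′ to 3′ on the strand of the gene, with the letters TCATGTGCT in capitals. Tyrp1 lies at chr5:100326875-100327174 on the plus strand, Dct at chr15:101507980-101508279 on the minus strand and Tyr at chr1:150622808-150623107 on the minus strand.
Tyrp1: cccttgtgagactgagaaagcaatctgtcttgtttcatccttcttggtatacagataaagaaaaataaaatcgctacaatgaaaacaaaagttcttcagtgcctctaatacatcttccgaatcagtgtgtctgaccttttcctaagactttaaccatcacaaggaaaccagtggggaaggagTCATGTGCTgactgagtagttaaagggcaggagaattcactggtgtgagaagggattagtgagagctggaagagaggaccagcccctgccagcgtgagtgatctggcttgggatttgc
Dct: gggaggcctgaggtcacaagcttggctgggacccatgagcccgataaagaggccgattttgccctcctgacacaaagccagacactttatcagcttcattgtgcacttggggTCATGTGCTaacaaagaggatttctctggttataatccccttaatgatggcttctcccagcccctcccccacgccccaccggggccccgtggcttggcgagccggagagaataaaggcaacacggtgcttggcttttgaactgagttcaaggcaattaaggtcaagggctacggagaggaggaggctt
Tyr: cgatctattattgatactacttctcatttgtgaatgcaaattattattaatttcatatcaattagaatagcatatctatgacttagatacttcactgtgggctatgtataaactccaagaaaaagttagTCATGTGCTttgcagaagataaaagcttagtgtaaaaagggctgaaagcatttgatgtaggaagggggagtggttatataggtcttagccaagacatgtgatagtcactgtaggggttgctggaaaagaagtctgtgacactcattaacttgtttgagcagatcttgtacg
Promoters were found for 6 of the 7 genes. The match began 68 bases before the start in Tyrp1, 138 before it in Dct and 121 before it in Tyr, always in the direction of the gene. When both strands were searched (AGCACATGA on the opposite strand), these 9 letters occurred in 68 of 33469 rat promoters of the same length, or 0.203%, and in 3 of the 6 members with a promoter. The shorter CATGTG, which lies within the former and was also searched on both strands, was present in 14% of all promoters and in 4 of the 6, Mlana being the added one. A match describes the letters only and not a bound site.

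Tyrp1 was at the lowest value the table allows, 0.1 FPKM, in 17 of the 20 libraries. In region 5 it was at 0.1 FPKM in control animal 1 and at 0.1 FPKM in control animal 2, against 2.90 FPKM in stimulated animal 1 and 2.74 FPKM in stimulated animal 2. Its only other value above the floor was 0.134 FPKM, in region 3 of control animal 2. The stimulated animals of region 5 (2.82 ± 0.108 FPKM, SD, n = 2) were thus at least 28.2-fold above a control level that the authors' floor sets at 0.1 FPKM. On the log2 scale the difference was 4.82, a value that depends on the floor. In these bulk samples, fewer cells of a type and less RNA per cell cannot be told apart.

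The enzyme that opens the same pathway did not share this pattern. Tyr was between 0.1 and 0.169 FPKM in all 20 libraries. In region 5 it was at 0.1 and 0.123 FPKM in control animals 1 and 2 and at 0.117 and 0.1 FPKM in stimulated animals 1 and 2, so the groups overlapped. Mlana was at 0.1 FPKM in both stimulated animals of region 5 and at 0.156 and 0.105 FPKM in the control animals. Its highest value anywhere was that 0.156 FPKM, and 16 of its 20 values were at the floor. Slc45a2 was at 0.1 FPKM in all 20 libraries. These 3 members lay at or near the floor in the libraries that held Tyrp1, while Pmel and Mitf, described next, did not.

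**Figure D1:**
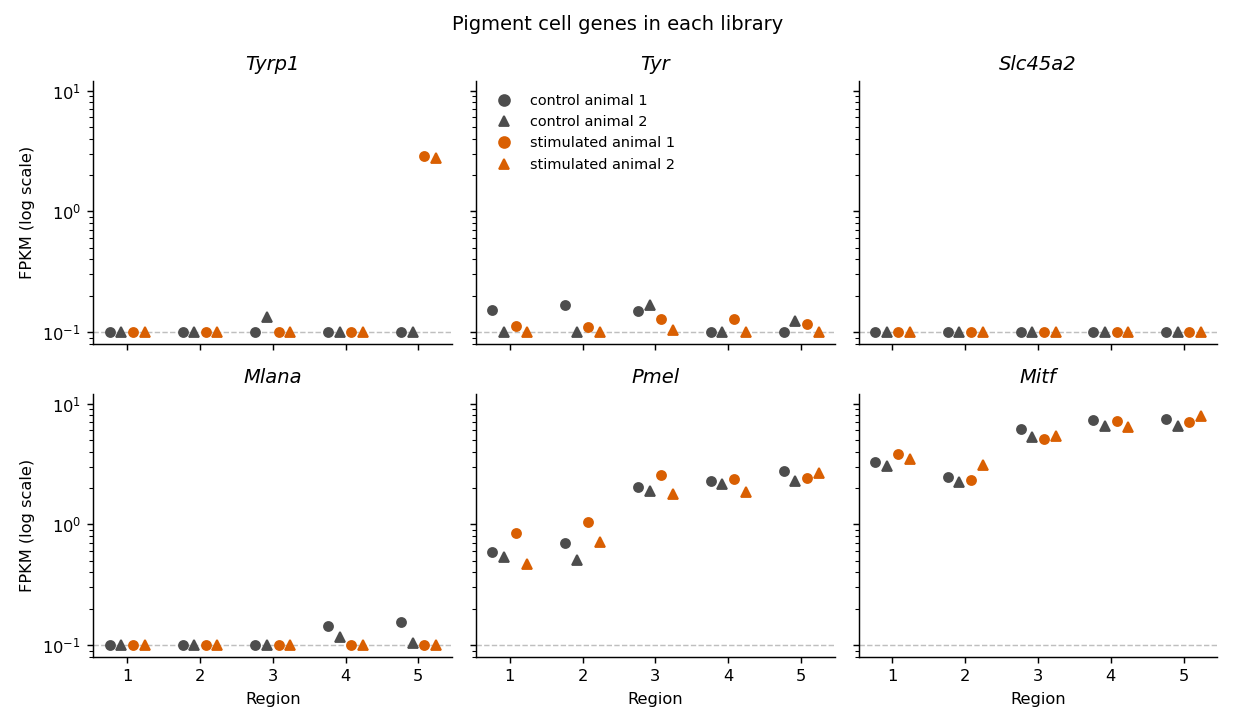
FPKM of the 6 pigment cell genes with a row in the table, on a log axis, by region (1 to 5), with 1 point per library (gray for control and orange for stimulated animals) and a dashed line at the floor. Tyrp1 leaves the floor of 0.1 FPKM clearly only in the 2 stimulated libraries of region 5, Tyr, Mlana and Slc45a2 stay at or below 0.169 FPKM, and Mitf and Pmel are present in every library.

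Mitf and Pmel, the other members above the floor, were present in all 4 libraries of region 5. Mitf was at 7.50 and 6.48 FPKM in control animals 1 and 2 and at 6.99 and 7.83 FPKM in stimulated animals 1 and 2. Pmel was at 2.77 and 2.29 FPKM in the control animals and at 2.41 and 2.65 FPKM in the stimulated animals. The groups overlapped for both, with log2 differences of 0.09 for Mitf and 0.01 for Pmel. Over the 6 members with a row, 1 lay wholly above the controls in the stimulated animals of region 5 (Tyrp1) and 1 wholly below (Mlana), with a median log2 difference of 0. Of all rows of the table, 12.2% lay wholly above and 4.31% wholly below. Among the 15210 rows that reached 1 FPKM, 18.5% lay wholly above and 6.07% below, with a median log2 difference of 0.05. Because the comparison chose the group, nothing is read from these counts.

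Other genes of melanosomes and melanocytes followed no common direction in region 5. Of 5 such genes, Oca2, Slc24a5, Gpr143, Mc1r and Trpm1, none was wholly above the controls in the stimulated animals and 2 were wholly below. Of all rows, 12.2% were above and 4.31% below. Oca2, a melanosomal anion channel, was at 1.26 ± 0.0546 FPKM in control and 0.733 ± 0.110 FPKM in stimulated animals (SD, n = 2 each). Mc1r, the receptor for melanocyte-stimulating hormone, was at 0.1 FPKM in all 4 libraries. Trpm1, a channel of melanocytes and retinal bipolar cells, overlapped between the groups. Slc24a5, an ion exchanger of melanosomes, averaged 6.87 FPKM in control and 7.17 FPKM in stimulated animals.

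Genes with the absence and presence that Tyrp1 showed were few. At 0.1 FPKM in both control animals and at 1 FPKM or more in both stimulated animals of region 5 there were 4 genes, Tmem233, Tyrp1, Scn11a and Scn10a, which are 0.0263% of the genes that reached 1 FPKM. The opposite pattern was held by 0 genes. Scn10a and Scn11a encode the tetrodotoxin-resistant sodium channels of nociceptive sensory neurons. Just outside these limits were Htr3b, a serotonin receptor subunit, at 0.816 and 1.29 FPKM in stimulated animals 1 and 2, and Mrgprb4, a receptor of C-fiber sensory neurons, at 0.847 and 2.49 FPKM. Within the limits, Tmem233 was at 2.42 and 4.77 FPKM, Scn10a at 1.32 and 2.39 FPKM and Scn11a at 1.41 and 2.92 FPKM.

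By the correlation of log2 FPKM over the 20 libraries, these same genes were the nearest to Tyrp1: Tmem233 (Pearson r = 0.992), Htr3b (0.992), Scn10a (0.991), Scn11a (0.989) and Mrgprb4 (0.974). All 5 were at 0.1 FPKM in the 18 other libraries, so each coefficient rests on the 2 stimulated libraries of region 5, the values that chose the group, and describes a shared floor. The ranks that follow rest on the same 2 libraries, since a gene ranks high by this measure only if it differs mainly there. Nothing is read from these ranks. Among the 15209 other genes, Avil, a villin relative of sensory neurons, ranked 10 (r = 0.931), Trpv1, the capsaicin receptor, 11 (0.914) and P2rx3, an ATP receptor of nociceptors, 12 (0.899).

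**Figure D2:**
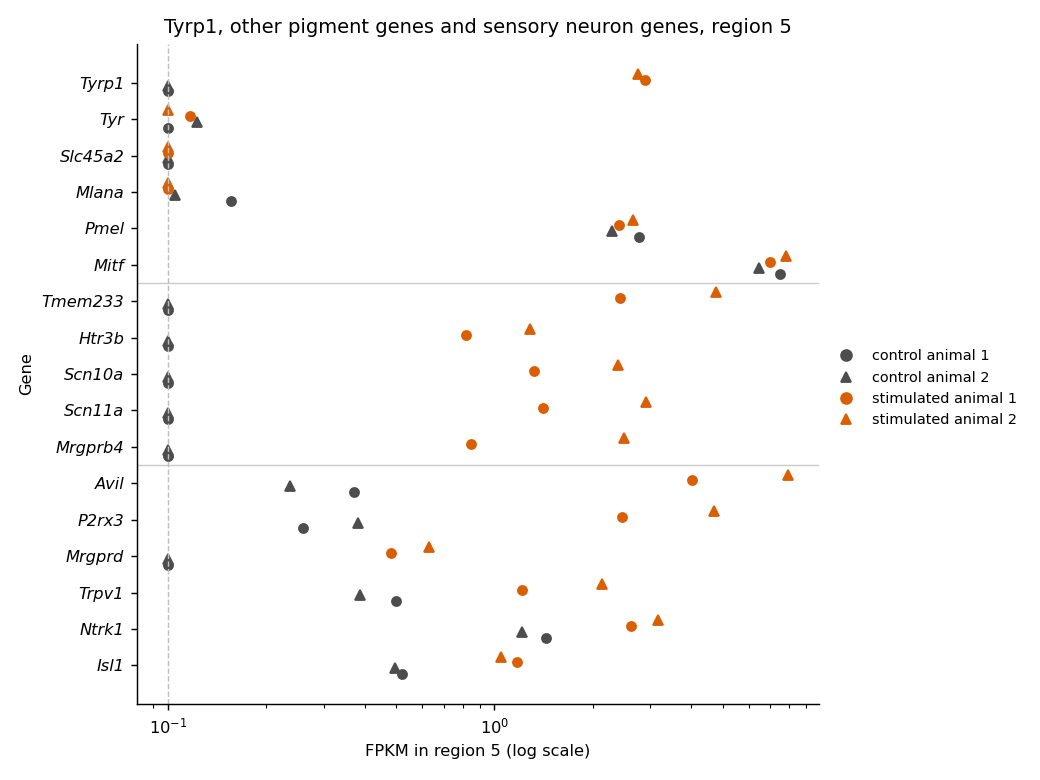
FPKM in the 4 libraries of region 5, on a log axis, with 1 point per animal, for the 6 pigment cell genes (top), the 5 genes nearest to Tyrp1 over the 20 libraries (middle) and sensory neuron genes (bottom); the dashed line is the floor. Tyrp1 lies at 2.90 and 2.74 FPKM in the stimulated animals. Tyr, Mlana and Slc45a2 lie between 0.1 and 0.156 FPKM, and Pmel and Mitf lie above 2 FPKM in all 4 animals. The middle genes were picked by their likeness to Tyrp1, so the pattern they share with it was fixed in advance.

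Markers of several other cell types were also above the controls in the stimulated animals of region 5, as were 18.5% of the genes that reached 1 FPKM. Of 12 sensory neuron genes, a list that includes Trpv1, which the study itself picked out in these libraries, 11 lay wholly above and 0 below, with a median log2 difference of 1.50 and a summed level of 108 to 113 FPKM in control and 144 to 179 FPKM in stimulated animals. Avil was at 0.37 and 0.24 FPKM in control animals 1 and 2 and at 4.03 and 7.92 FPKM in stimulated animals 1 and 2. Pou4f1, a transcription factor of sensory neurons, was the gene whose groups overlapped. All 7 Schwann cell genes with a row lay above, with a median of 0.77 and a summed level of 167 to 202 FPKM in control and 378 to 385 FPKM in stimulated animals.

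Meningeal fibroblast and arachnoid genes lay above in 11 of 16 and below in 0, with a median log2 difference of 0.48. Their summed level was 1725 to 1934 FPKM in control and 2328 to 2742 FPKM in stimulated animals, and Col1a2 was at 0.1 FPKM in all 4. Dcn, the proteoglycan decorin of fibroblasts, was at 21.4 and 25.1 FPKM in control animals 1 and 2 and at 48.7 and 62.2 FPKM in stimulated animals 1 and 2. Phagocyte genes lay above in 3 of 9, beside 18.5% of the genes that reached 1 FPKM. Their median was 0.18 and their summed level 820 to 851 FPKM against 832 to 986 FPKM. Most listed meningeal, sensory neuron and Schwann cell genes were thus at higher levels in the libraries with Tyrp1 than in the control libraries. These libraries are the ones that chose the group, and the sensory neuron list includes Scn10a and Scn11a, which shared the pattern of Tyrp1. The part of each cell type in the Tyrp1 value was not tested.

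**Figure D3:**
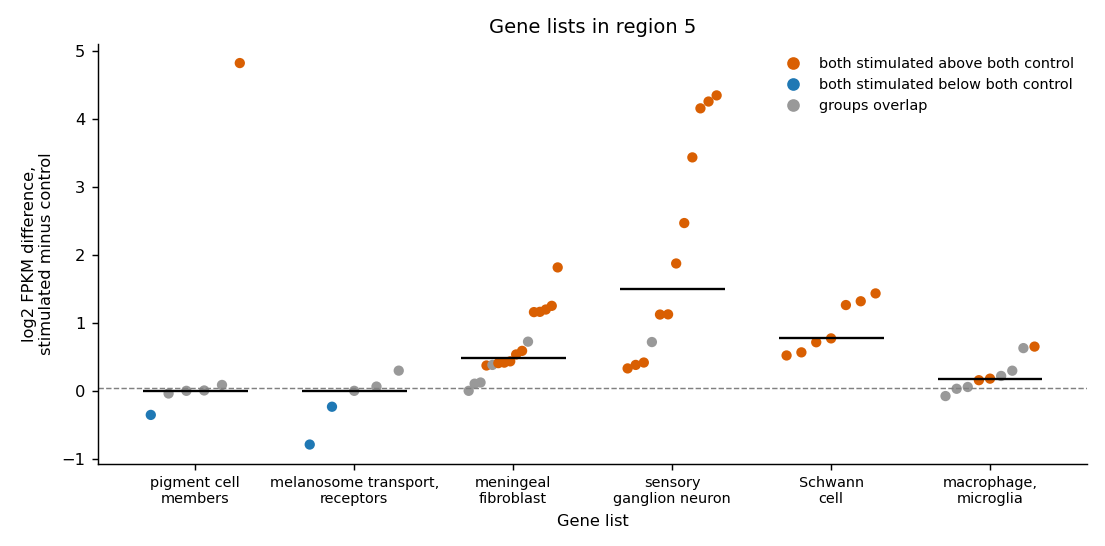
Log2 difference between stimulated and control animals in region 5 (means of log2 FPKM, 2 libraries each) for every gene with a row in each list, with 1 point per gene, a bar at the median of the list and a dashed line at the median of all genes at 1 FPKM or more (0.05). The lists of sensory neuron, Schwann cell and meningeal genes have medians of 1.50, 0.77 and 0.48, while the pigment cell genes other than Tyrp1 lie near or below 0.

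Between the stimulated animals of region 5 the lists also differed in proportion. Tyrp1 in animal 2 was 0.947 of its level in animal 1. The median log2 FPKM of the genes that reached 1 FPKM was itself higher in animal 2 (2.69) than in animal 1 (2.56). For the sensory neuron list the median of this ratio was 1.52, with a range of 0.893 to 2.07. Tmem233, Htr3b and Mrgprb4 had ratios of 1.58 to 2.94. The Schwann cell genes had a median ratio of 0.949, ranging from 0.813 to 1.00. The 15 meningeal genes above the floor had a median of 1.28, ranging from 0.971 to 2.47. These are ratios of single libraries without a replicate check, and the 2 libraries are the ones that chose the group. The source of the Tyrp1 RNA was not tested, and nothing is read from these ratios.

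Of the neighbors of Tyrp1, 2 had values in the table. LOC102556039, a long noncoding RNA that overlaps Tyrp1 in the GRCr8 annotation, was at 0.1 FPKM in both control animals of region 5, at 0.139 FPKM in stimulated animal 1 and at 0.1 FPKM in stimulated animal 2. The next coding gene, Lurap1l, was at 4.81 and 4.65 FPKM in the control animals and at 5.34 and 4.16 FPKM in the stimulated animals, so its groups overlapped. The study states default settings for its software, under which the strand of the reads is not used. The strand of the reads therefore could not separate Tyrp1 from LOC102556039 at any positions that both cover. Whether their exons overlap was not examined.

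Mitf and Pmel were higher in the cord than in the white matter blocks, a comparison that leaves out the libraries in which Tyrp1 was seen. Mitf was at 2.97 ± 0.576 FPKM in white matter (SD, n = 8 libraries) and at 6.33 ± 0.867 FPKM in the cord (n = 10), a log2 fold change of -1.13 (SE 0.07, adjusted p = 6.98e-10, limma with Benjamini-Hochberg adjustment). Pmel was at 0.675 ± 0.193 FPKM in white matter and at 2.20 ± 0.320 FPKM in the cord, a log2 fold change of -1.77 (SE 0.15, adjusted p = 1.24e-08, limma). White matter and cord libraries did not overlap for either gene, and without region 2 of stimulated animal 2 the log2 fold changes were -1.18 and -1.77. Both passed in all 15 settings tried, with adjusted p from 6.63e-12 to 4.77e-06 for Mitf and from 3.24e-10 to 4.38e-05 for Pmel. Differences between these tissues were common, as 69% of the 15210 genes passed, 44.2% lower and 24.8% higher in white matter, with a median log2 fold change of -0.17 (-0.05 after quantile normalization). The libraries come from 4 animals, and several of them share an animal.

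Cell composition differed with the same tissues. All 4 oligodendrocyte genes were lower in the white matter blocks (median log2 fold change -2.53) and all 3 cortical neuron genes higher (7.24). Phagocyte genes were lower in 6 of 9 (median -1.25) and meningeal genes in 9 of 15 (-0.89). Of the 7 Schwann cell genes, 6 were lower and 1 was higher (median -3.92). Of all genes, 44.2% were lower and 24.8% higher. The part of each cell type in the Mitf and Pmel values was not tested. Sox10, a factor of oligodendrocytes, Schwann cells and melanocytes alike, was also lower in white matter (log2 fold change -1.69, adjusted p = 8.77e-10, limma).

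**Figure D4:**
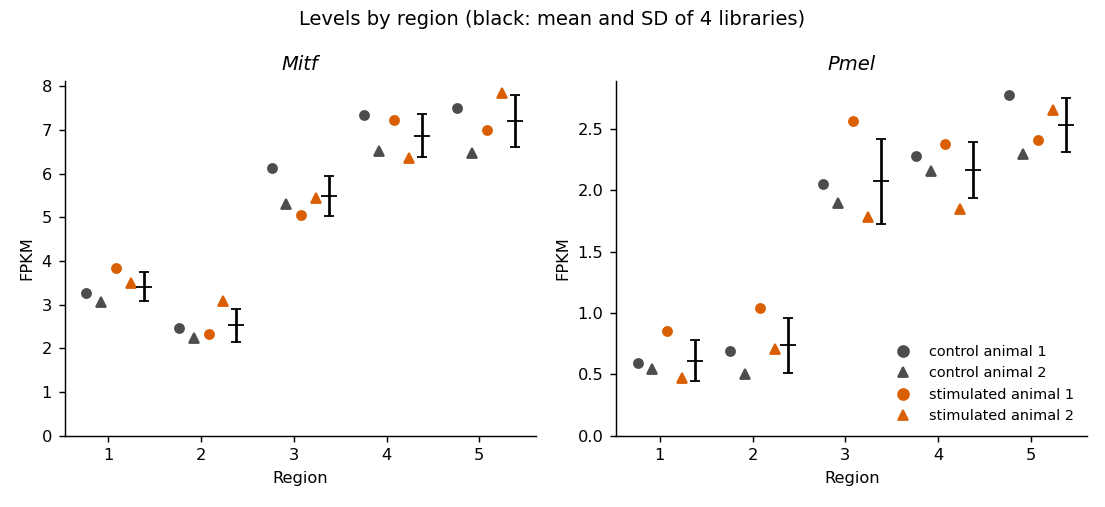
FPKM of Mitf and Pmel in each of the 20 libraries by region, with 1 point per library and a black bar for the mean and SD of the 4 libraries of each region. Mitf runs from a mean of 2.53 FPKM in region 2 to 7.20 FPKM in region 5, and Pmel from 0.613 FPKM in region 1 to 2.53 FPKM in region 5.

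Within the cord and within the white matter the differences were smaller. From highest to lowest, Mitf averaged 7.20 ± 0.593 FPKM caudal to the lesion, 6.86 ± 0.494 FPKM at it, 5.48 ± 0.456 FPKM rostral to it, 3.41 ± 0.335 FPKM under the implant and 2.53 ± 0.376 FPKM on the other side (SD, n = 4 each). Pmel averaged 2.53 ± 0.220, 2.16 ± 0.228, 2.07 ± 0.345, 0.613 ± 0.167 and 0.737 ± 0.222 FPKM in the same order of places. For both genes the caudal piece and the lesion overlapped in mean ± SD. At the lesion Mitf was at 7.34, 6.51, 7.23 and 6.37 FPKM in control animals 1 and 2 and stimulated animals 1 and 2, each above the 6.12, 5.30, 5.06 and 5.44 FPKM of the same animals rostral to it. The log2 fold change was 0.33 (SE 0.11, adjusted p = 0.0476, limma), where 5.58% of all genes were called higher and 11.4% lower. With upper-quartile scaling the called genes split into 1870 higher and 2295 lower, in place of 848 and 1740. This call was close to the threshold and held in 9 of 14 settings, with adjusted p from 0.00272 to 0.217. It was lost when control animal 1 (0.172), control animal 2 (0.210) or stimulated animal 1 (0.217) was left out.

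Pmel did not pass between these regions. It was at 2.28, 2.16, 2.37 and 1.85 FPKM at the lesion and at 2.05, 1.89, 2.56 and 1.78 FPKM rostral to it, in the same order of animals (log2 fold change 0.07, SE 0.21, adjusted p = 0.847, limma). Phagocyte markers moved with Mitf at the lesion, where 4 of 9 were higher, beside 5.58% of all genes. Among them was Gpnmb, a glycoprotein of phagocytes that melanocytes also make (log2 fold change 3.48, adjusted p = 0.00239, limma). Schwann cell genes were higher there in 6 of 7. The part of either cell type in the Mitf difference was not tested.

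Under the implant, Mitf was higher than on the other side. It was at 3.27, 3.05, 3.83 and 3.49 FPKM in region 1 of control animals 1 and 2 and stimulated animals 1 and 2, and at 2.47, 2.24, 2.33 and 3.08 FPKM in region 2 of the same animals (log2 fold change 0.44, SE 0.11, adjusted p = 0.0265, limma). The highest library of region 2, at 3.08 FPKM, was the one that stood apart in phagocyte genes. Of all genes 4.77% were called higher and 1.3% lower, 923 genes in total, which became 1506 when a term for the animal was fitted. The split of 725 higher and 198 lower became 735 and 674 after quantile normalization and 957 and 736 after upper-quartile scaling. The Mitf call held in 12 of 15 settings (adjusted p from 0.00123 to 0.333) and was lost without control animal 1 (0.195), control animal 2 (0.181) or stimulated animal 1 (0.333). Without region 2 of stimulated animal 2, but with region 1 of that animal kept, the call held (log2 fold change 0.54, adjusted p = 0.00123, limma), and 3399 genes passed in all. Pmel did not pass with that region 2 library (log2 fold change -0.26, SE 0.21, adjusted p = 0.507, limma) or without it (-0.26, adjusted p = 0.483). Of the marker lists, 4 of 9 phagocyte, 4 of 7 Schwann cell, 3 of 4 oligodendrocyte and 6 of 15 meningeal genes were higher under the implant, and their part in the Mitf difference was not tested.

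Relatives of Mitf in the MiT family of transcription factors differed among themselves. Tfeb, the regulator of lysosomal genes, was lower in white matter than in the cord (log2 fold change -1.17, adjusted p = 6.33e-07, limma). Tfe3 did not pass (-0.16, adjusted p = 0.0634), nor did Tfec, a member made in macrophages (1.29, adjusted p = 0.0668). In region 2, Tfec was at 3.16 FPKM in stimulated animal 2 and at 0.1 FPKM in the other 3 animals. At the lesion Tfec was higher than rostral to it (2.84, adjusted p = 0.0369, limma), a call that held in 8 of 14 settings. Rostral to the lesion Tfec was at 0.143 FPKM in control animal 1 and at the floor in the other animals. The size of this fold change therefore depends on the floor. Of the 4 members of the family, 2 were lower in white matter and 0 higher, beside 44.2% and 24.8% of all genes.

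The other genes of pigment cells were mixed between white matter and cord. Oca2 (log2 fold change -1.84, adjusted p = 4.17e-08, limma) and Gpr143, a receptor of melanosomes (-2.03, adjusted p = 1.17e-06), were lower in white matter. Slc24a5 was slightly higher (0.15, adjusted p = 0.0355) and passed in 12 of 15 settings. Kit, a receptor of melanoblasts and of other cells, was higher in white matter (0.61, adjusted p = 5.25e-05), and Ednrb, the endothelin receptor of neural crest cells and astrocytes, was lower (-1.99, adjusted p = 1.60e-08). Among carriers of melanosomes, Rab27a was lower (-1.40, adjusted p = 9.47e-06) and its partner motor Myo5a, which also serves in neurons, higher (0.71, adjusted p = 1.09e-06). Of 15 genes with a row that build lysosome-related organelles, 8 were lower in white matter, 2 higher and 5 did not pass, with a median of -0.32, beside 44.2% of all genes lower and 24.8% higher. Bloc1s5, a subunit of the BLOC-1 sorting complex, was lower (-1.30) and Lyst, the Chediak-Higashi gene, higher (0.30).

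**Figure D5:**
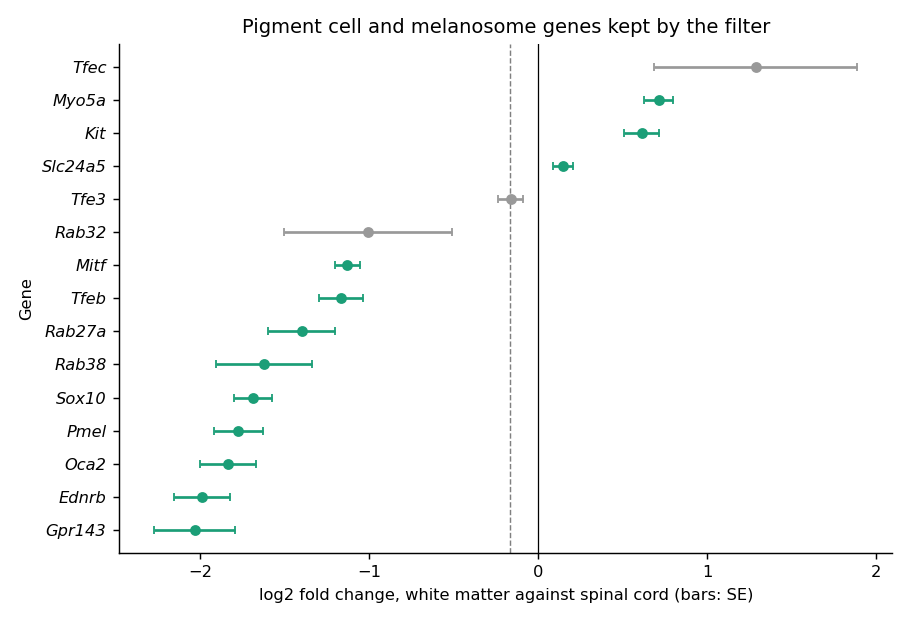
Log2 fold change between white matter (8 libraries) and cord (10 libraries) with its standard error for Mitf, Pmel and the other pigment cell, melanosome and MiT family genes that reached 1 FPKM, green where the adjusted p was under 0.05 and gray otherwise, with a dashed line at the median of all genes (-0.17). On the side of lower levels in white matter (negative), Pmel lies at -1.77 and Mitf at -1.13, and Kit and Myo5a lie on the other side of 0.

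Stimulation was then compared in regions 1 to 4, which the choice of genes did not use. No gene passed in any of the 4 regions (0 of 15210 genes, or 0%, limma), while 828, 215, 522 and 341 genes of regions 1 to 4 reached an unadjusted p under 0.05. For Mitf the log2 fold changes were 0.21 (SE 0.16), 0.18 (0.22), -0.12 (0.12) and -0.03 (0.15) in regions 1 to 4, with adjusted p of 0.712, 0.949, 0.956 and 1. For Pmel they were 0.16 (SE 0.36), 0.53 (0.32), 0.12 (0.23) and -0.08 (0.21), with adjusted p of 0.890, 0.949, 0.963 and 1. Without stimulated animal 2 the values in region 2 were -0.017 for Mitf and 0.81 for Pmel, neither of which passed, while 10 genes did. The groups did not overlap for Mitf in region 1 or for Pmel in region 2, where both stimulated animals were above both controls, as were 21.2% of the genes tested in region 1 and 20.2% of those in region 2. Pmel in region 2 was at 0.694 and 0.506 FPKM in control animals 1 and 2 and at 1.04 and 0.708 FPKM in stimulated animals 1 and 2. Tyrp1 was at 0.1 FPKM in every library of regions 1, 2 and 4, so no fold was formed there. Near the floor, Tyr was below the controls in both stimulated animals of region 3 (15% of all rows were) and Mlana in region 4 (5.99% of all rows). Oca2 was below the controls in both stimulated animals of regions 2, 3 and 4, as were 6.77%, 24.7% and 7.69% of the genes tested there, and it did not pass. It was not alone in its list of 5 (with Slc24a5, Gpr143, Mc1r and Trpm1). Of these 5, 2, 4 and 3 were below in regions 2, 3 and 4, and 0 above. In region 1, 0 were below and 1 was above.

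Whether the effect of stimulation differed between regions was tested on the differences within each animal, for the 6 pairs of regions 1 to 4. In every pair 0 genes passed after adjustment (limma), with 162 to 1262 genes per pair at an unadjusted p under 0.05. The adjusted p ranged from 0.535 to 0.985 for Mitf and from 0.733 to 0.984 for Pmel.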

How the data were processed

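Total RNA libraries of 5 regions from 4 rats (20 libraries) were analysed. The authors aligned the reads with TopHat2 2.1.0 and estimated levels with Cufflinks 2.2.1, on build Rnor 6, and the deposited values are FPKM per gene, in which values under 0.1 had been raised to 0.1 (241869 of 608860 values were at that floor). The table holds no counts, so the depth behind a value is unknown and no counting interval was formed. Library groups and animals were taken from the labels.

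The members, the lists of related and marker genes, the tests and the alternatives were chosen with earlier results of these data known. Named genes were the members, the listed genes, the genes nearest to a member by correlation (5 for Tyrp1, 3 for Mitf and Pmel), and those at the floor in both control and at 1 FPKM or more in both stimulated libraries of region 5. Where a name occurred more than once, the row with the highest mean was used. Log2 of the floored FPKM of the 15210 genes at 1 FPKM or more in any library was fitted with limma 3.58.1 (trend) in R 4.3.3, with Benjamini-Hochberg adjustment over all genes and a threshold of 0.05. Stimulation was fitted per region (4 libraries). Regions were compared in 18 libraries, without region 5 of the stimulated animals. P-values for regions treat libraries of the same animal as independent, with the animal as a block as an alternative. On simulated data for the 15210 genes with 200 changed by a log2 fold change of 2, the stimulation fit recovered 74% of them, the difference between regions 35.5%, white matter against cord 96%, region 4 against 3 93% and region 1 against 2 91%. Per fit, 1 to 15 unchanged genes were called. The simulated libraries were independent, with the same spread in all regions, and for comparisons of regions no other gene differed. The data differ in these respects, so the rates are not the power in them. Within an animal, regions 1 and 2 deviated together (r of 0.413 to 0.768, n = 4 animals), and regions 3 and 4 less so (0.136 to 0.255). The sign of r was mixed for regions 1 and 4 (-0.273 to 0.141), 2 and 4 (-0.286 to 0.164) and 4 and 5 (-0.0883 to 0.105). The other pairs lay between 0.00201 and 0.314. The pairing came from the animal named in the labels. Promoters were the RefSeq windows on GRCr8, and neighboring genes were taken by name from the same annotation, since no coordinates of different builds were mixed. Alternatives were other offsets on the log scale, other filters, quantile and upper-quartile scaling, a fit without the trend, a single model of all regions, blocks and each animal left out.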

Additional observations from a re-analysis of the deposited data

Results flagged for a closer look

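Of 24 sets of 4 libraries of a member in one region of regions 1 to 4, 3 held a library far from the others. The usual chance rate of about 1 in 20 does not apply here, since 10 of the sets were wholly at the floor and, in 2 of the 3, the other libraries were tied at it, so that any value above it stands apart. Tyr in region 2 was at 0.168 FPKM in control animal 1, against 0.1 to 0.111 FPKM in the other 3 animals. In region 4 Tyr was at 0.129 FPKM in stimulated animal 1 and at the floor of 0.1 FPKM in the other 3. Tyrp1 in region 3 was at 0.134 FPKM in control animal 2 and at 0.1 FPKM in the other 3. All 3 values lie just above the floor.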

How the results depend on the processing

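The white matter against cord results of Mitf and Pmel kept their direction and call in every setting tried. Under stimulation the count of 0 became 1 in each of regions 1 to 4 with a single model of all regions (Fjx1, lower) and 3 in region 3 without the filter on low values, while with the replicate block, which joins different animals that only share a number (r of their deviations -0.21, -0.10, -0.11, 0.32 and -0.16 in regions 1 to 5), it stayed 0. Leaving out 1 animal gave 0 to 228 genes in region 1, 0 to 548 in region 2, 0 to 0 in region 3 and 8 to 140 in region 4, fits in which the lone library is assumed to vary like the others. For region 4 against 3 the count was 4403 with quantile and 4165 with upper-quartile scaling and 170 (without control animal 2) to 4792 (without stimulated animal 2) with 1 animal left out, or 486 without control animal 1 and 1066 without stimulated animal 1. For region 1 against 2 it was 1409 with quantile and 1693 with upper-quartile scaling, 1506 with the animal as a replicate block, 3399 without region 2 of stimulated animal 2 (an alternative chosen after seeing the data) and 16 to 3497 with 1 animal left out. White matter against cord gave 8295 to 11630 genes with 1 animal left out. The differences of stimulation effects gave 0 to 113 (regions 1 and 2), 0 to 176 (1 and 3), 0 to 1154 (1 and 4), 0 to 577 (2 and 3), 0 to 1624 (2 and 4) and 0 to 0 (3 and 4) genes with 1 animal left out, and 1 gene (Ucma) for regions 1 and 3 with a single model. The Tyrp1 log2 difference in region 5 was 1.80 with 1 added to the FPKM, 3.87 with 0.1 added, 4.65 after quantile normalization and 4.78 to 4.86 with 1 animal left out. Signs turned for values that had not passed: Pmel under stimulation in region 1 (-0.11 with quantile normalization, -0.27 to 0.59 with 1 animal left out) and in region 4 against 3 (-0.012 with quantile normalization). With 1 animal left out, ranges across 0 were also found for stimulation of Mitf in region 2 (-0.017 to 0.39), Pmel in region 3 (-0.15 to 0.38), Mitf in region 4 (-0.12 to 0.064) and Pmel in region 4 (-0.26 to 0.10), and for the differences between regions of Mitf in 1 and 2 (-0.24 to 0.30), Pmel in 1 and 3 (-0.12 to 0.21), Pmel in 1 and 4 (-0.0071 to 0.50), Mitf in 2 and 4 (-0.081 to 0.50) and Mitf in 3 and 4 (-0.24 to 0.052). Ranges on one side of 0 that moved by over 1.5 times were 0.26 to 0.81 for Pmel in region 2 and -0.22 to -0.015 for Mitf in region 3 under stimulation. The Mitf call for region 4 against 3 was also lost without the filter (adjusted p = 0.0563, limma) and without the trend (0.0508). Of the alternative values for Mitf and Pmel, 249 counted as the same, 13 changed sign and 8 lost the call. For the fits, the same meant an unchanged direction and side of the threshold. For region 5, where no test was made, it meant a shift smaller than the SD within groups, whatever the sign. With 1 animal left out, the region 5 difference ran from -0.019 to 0.19 for Mitf and from -0.13 to 0.14 for Pmel. The cause of these changes was not tested. With 2 animals per group and no counts, small differences of genes near the floor could not be resolved.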

Other observations

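Trpm1, whose level was too low for the tests, averaged 0.213 ± 0.0075 FPKM in region 3, 0.724 ± 0.211 FPKM in region 4 and 0.307 FPKM in region 5 (SD, n = 4). Over the 20 libraries the genes whose log2 FPKM was nearest to Mitf were Cd164 (r = 0.994), Ssfa2 (0.992) and Crybg3 (0.992), and those nearest to Pmel were Sgca (0.983), Cyp2d4 (0.982) and S100b (0.981), a calcium-binding protein of astrocytes and oligodendrocytes. The libraries behind these coefficients come from 4 animals and 2 kinds of tissue, and no test was made.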
